A study of Homo sapiens with 4 samples.

Results

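The genes described here encode the factors that start and extend protein chains on the ribosome. They were chosen by name from the deposited gene counts as protein-coding genes whose symbol begins with EIF1 to EIF6 or with EEF1 or EEF2, leaving out the EIF2AK kinases. The rule found 68 of the 60544 genes in the table, and 62 of them had enough counts to be tested. Besides ribosomal factors, the names take in the EIF4E binding proteins (EIF4EBP), the methyltransferases of elongation factors (EEF1AKMT, EEF1AKNMT and EEF2KMT), the kinase EEF2K and some read-through transcripts. The 4 poly(A) RNA libraries came from PC3, an established human prostate cancer line with no genetic or drug treatment named in the labels beyond the short hairpin. The 2 control libraries carry the treatment label shNC and the other 2 carry sh812. The study compared METTL3 knockdown with control, and sh812, the only other label, was read as the knockdown. A single hairpin stood for the knockdown, and nothing in the labels says whether replicates were separate cultures, so the tests measure the spread between these libraries, which may be technical.

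Initiation factors bring the initiator transfer RNA, the small ribosomal subunit and the capped messenger RNA together and find the start codon. Elongation factors then deliver aminoacylated transfer RNAs and move the ribosome along. Many transcripts of elongation factors, and some of initiation factors, begin with a pyrimidine tract (the 5′ terminal oligopyrimidine or TOP tract), a feature known from ribosomal protein messages whose translation follows mTORC1 activity. METTL3 catalyses N6-adenosine methylation of messenger RNA, most often in sequences of the GGACT kind.

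METTL3 counts were 1682 and 1379 in shNC against 269 and 313 in sh812. As CPM, counts scaled to a common library size with TMM factors, these were 44.3 and 43.6 against 7.66 and 8.75. The log2 fold change was -2.42 (SE 0.11, edgeR adjusted p = 5.54e-14, n = 2 per group), which goes with the labels. Library totals lay between 31450648 and 37041330 counts. The epithelial markers KRT8, KRT18, EPCAM and CDH1 were present in every library, whereas the prostate luminal genes KLK3 and KLK2 had 0 counts throughout. Summed over the 4 epithelial markers, the level was 441 to 499 CPM in shNC and 551 to 567 CPM in sh812, and the 3 endothelial markers summed to 23.8 CPM in both shNC libraries and to 32.9 to 38.8 CPM in sh812. The endothelial sum was nearly all PECAM1, with VWF and CDH5 at no more than 0.168 CPM. The part of these shifts in the results was not tested. Counts are relative to all RNA in the library, so a change in RNA per cell cannot be told apart from a change in a transcript's share.

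Of the 62 tested translation factor genes, 9 (14.5%) were called by edgeR's quasi-likelihood test at an adjusted p under 0.05. The background was 10.8% over all 16802 genes tested, and 13% over the 13250 protein-coding genes tested, the type that the rule admits. Of the 9 called members, 8 rose in sh812 (12.9%, background 5.43%, and 6.39% of protein-coding genes). They were EIF3K, EIF3I and EIF3B of the eIF3 complex, EEF1A1 and EEF1B2 of the elongation machinery, the eEF1A methyltransferase EEF1AKNMT, the cap-binding protein EIF4E2 and EIF5A. The helicase gene EIF4A2 fell and was the only one called lower (1.61%, background 5.42%, and 6.62% of protein-coding genes). All 9 changes were small, between 1.14- and 1.29-fold for those that rose and 0.869-fold for EIF4A2. Calls were more frequent among abundant genes: of the 2332 genes with a mean of at least 100 CPM, 25.6% were called, against 8 of 38 translation factor genes above that level (21.1%). With each library's trend on transcript length and GC content removed, the same shares were 11 of 38 members (28.9%) and 25.3% of genes above that level. By direction, with TMM scaling alone, 18.4% of the members above that level were called higher, beside 17.6% of all such genes. Called lower were 2.63% of these members and 7.98% of these genes.

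**Figure D1:**
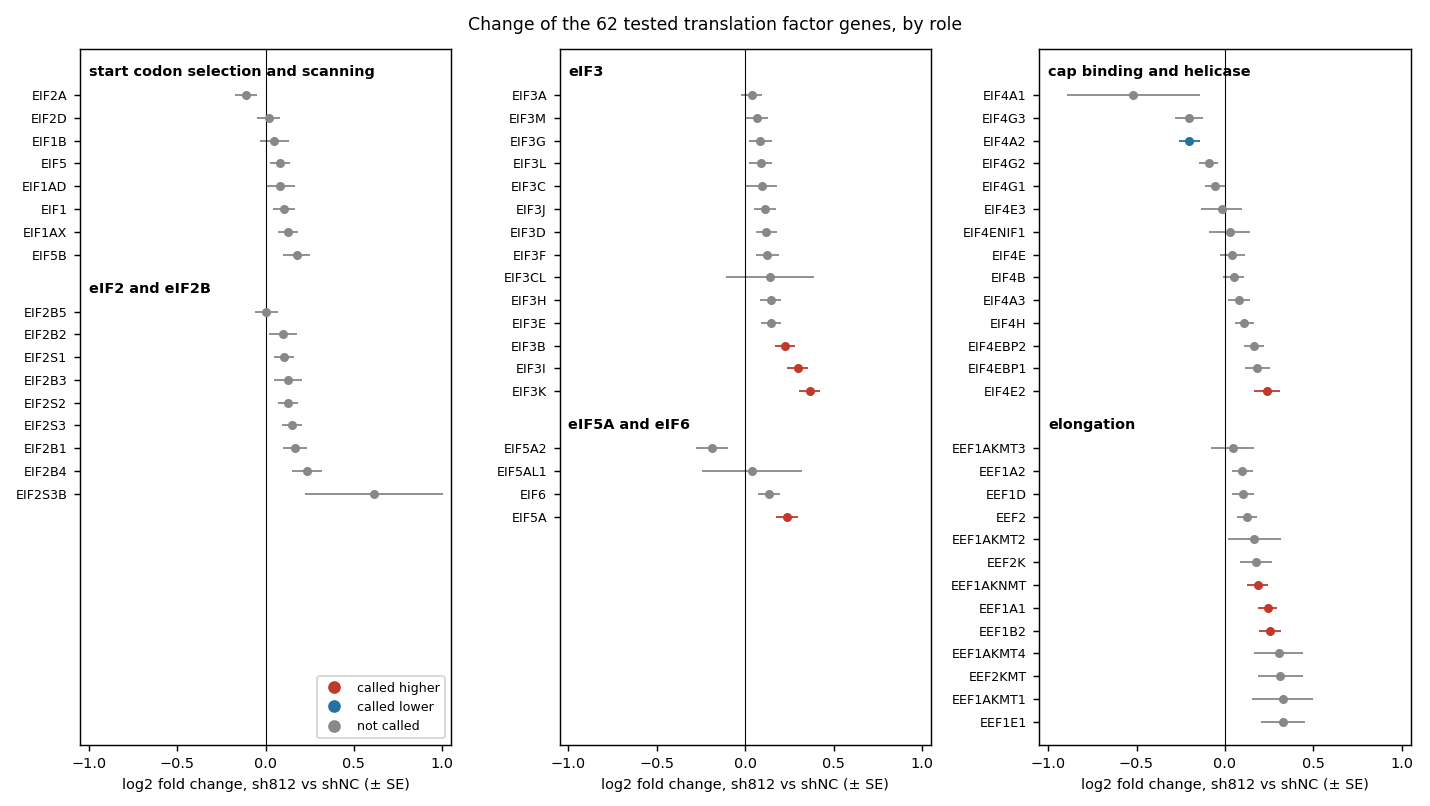
Log2 fold change of sh812 over shNC (x axis) for the 62 tested translation factor genes, grouped by role, with bars of 1 SE from edgeR (n = 2 libraries per group) and colours for the call at an adjusted p under 0.05. Estimates lie above 0 for 54 genes and below 0 for 8, and the 9 called genes lie between -0.20 and 0.36.

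The estimates leaned to one side. Of the 62, 54 had an estimate above 0 and 8 below (87.1% above, against 49% of all genes tested), or 47 above 0 with library size alone as the scaling. The median log2 fold change was 0.116, beside -0.00563 for all genes. Above 100 CPM the same figures were 34 of 38 members with an estimate above 0 and a median of 0.116, beside 60.9% and 0.0438 for all such genes. In 46 genes (74.2%, background 53.6%) the groups did not overlap, with sh812 above shNC in 39 (background 26.2% in that direction) and below it in 7. Over the 13250 protein-coding genes tested the groups did not overlap in 57%, with sh812 above shNC in 3648. An unadjusted p under 0.05 was reached by 26 members (41.9%, background 24.8%, and 28.5% of protein-coding genes), of which 17 were not called. Above 100 CPM the groups did not overlap in 76.3% of members and 70.6% of all such genes. There sh812 was above shNC in 25 of 38 members and in 1050 of 2332 genes. An unadjusted p under 0.05 was reached by 47.4% of members and 44.5% of genes at that level. Members took 2.16% and 2.27% of all counts in shNC and 2.39% and 2.37% in sh812. EEF1A1 made up 0.692% and 0.763% of all counts in shNC and 0.830% and 0.838% in sh812, and the other members together took 1.47% and 1.504% against 1.56% and 1.53%.

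The shNC libraries differed from each other in the direction of the group difference. The median member was 0.0586 log2 units higher in shNC replicate 2 than in replicate 1, with 42 of 62 higher, whereas over all genes the median of that difference was -0.0011. All 8 genes that rose in sh812 were also higher in shNC replicate 2 than in shNC replicate 1. The calls depended on single libraries. Without shNC replicate 2, 29 members were called, 27 of them higher; without shNC replicate 1, 11; without sh812 replicate 1 only EIF3K; and without sh812 replicate 2 only EIF3K and EIF3I. In these fits the lone library of a group was assumed to vary like the other group's pair.

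**Figure D2:**
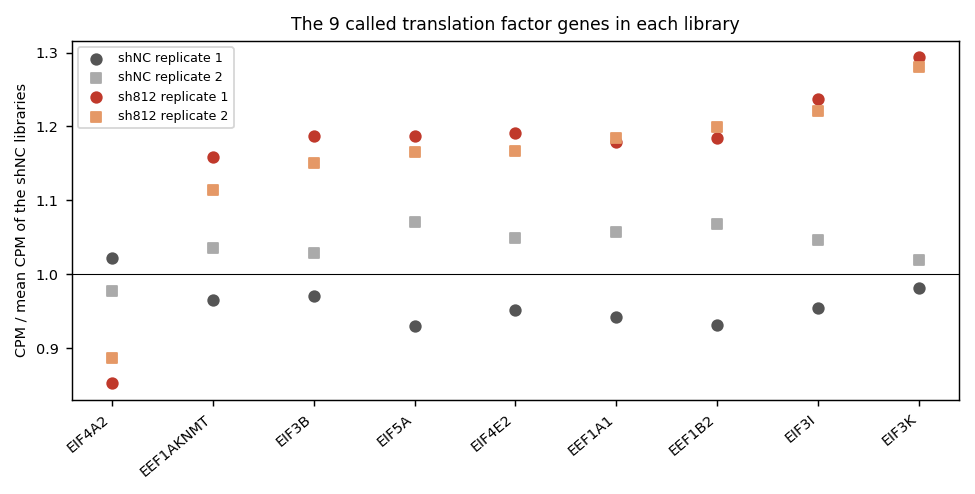
CPM of each called gene in each library (points), divided by the mean CPM of the 2 shNC libraries, with a line at 1. In the 8 genes that rose, both sh812 libraries lie above both shNC libraries and shNC replicate 2 lies above shNC replicate 1, and in EIF4A2 both sh812 libraries lie below.

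Transcript length moved with both differences. Across the 62 members, Spearman's rho between the log2 fold change and the length of the longest annotated transcript was -0.45, and across all 12696 genes used for this description it was -0.318. The difference between shNC replicate 2 and replicate 1 had nearly the same relation to length, with a rho of -0.447 across the members and -0.314 across all genes. Genes share their libraries, so these values describe the libraries and carry no test. When the trend on length and GC content was removed, the members' rho was 0.0835 and their median log2 fold change 0.106. Then 14 members were called (22.6%), all higher, beside a background of 10.2% of all genes called and 5.14% called higher. Of the protein-coding genes tested, 12.4% were called in that fit. EIF3K, EIF3I, EIF3B, EEF1A1, EIF4E2 and EEF1AKNMT were called in both fits. EEF1B2, EIF5A and EIF4A2 were not called after removal, whereas EIF1AX, EIF5, EIF5B, EIF2B4, EIF3F, EIF3H, EIF4EBP2 and EEF2K were called after it and not with TMM scaling alone.

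**Figure D3:**
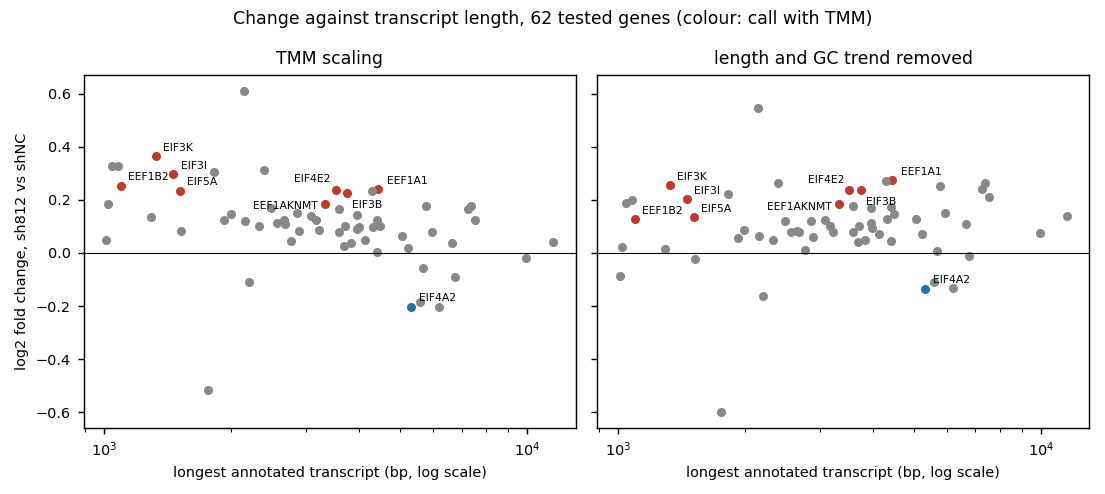
Log2 fold change of sh812 over shNC (y axis) against the longest annotated transcript (x axis, log scale) for the 62 tested genes, with TMM scaling at left and with each library's length and GC trend removed at right. The short transcripts of EIF3K, EIF3I, EEF1B2 and EIF5A lie lower at right than at left, and Spearman's rho goes from -0.45 to 0.0835.

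Annotated transcript starts show how the members differ in the TOP feature. RefSeq starts on GRCh38.p14 were available for 54 of the 68 members, and a start was counted as pyrimidine-led when the transcript begins with C followed by at least 4 further pyrimidines on the transcribed strand. That held for 13 of the 54 members (24.1%), against 5.14% of the 27305 genes with an entry. Of the called genes, EEF1A1, EEF1B2, EIF3K and EIF4A2 began in this way, EIF3I, EIF3B, EIF4E2 and EIF5A did not, and EEF1AKNMT had no entry. The windows below run from 15 bases before the annotated start to 15 bases from it, with the pyrimidine run at the start in capitals. They cover chr6:73521018-73521047 (minus strand) for EEF1A1, chr2:206159880-206159909 (plus) for the second of the 2 EEF1B2 entries, chr19:3985449-3985478 (minus) for EEF2, chr19:38619173-38619202 (plus) for EIF3K, chr3:186783562-186783591 (plus) for EIF4A2 and, for contrast, chr1:32222392-32222421 (plus) for EIF3I and chr7:2354812-2354841 (plus) for EIF3B.
EEF1A1: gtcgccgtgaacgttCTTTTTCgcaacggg
EEF1B2: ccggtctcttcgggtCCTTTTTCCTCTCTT
EEF2: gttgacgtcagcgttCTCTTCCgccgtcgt
EIF3K: ttccgtttccaccacCTCTTCCTgttcccg
EIF4A2: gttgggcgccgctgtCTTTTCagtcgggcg
EIF3I: accttttccggtcttactcacgttgcggcc
EIF3B: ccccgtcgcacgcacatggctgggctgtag

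The 13 pyrimidine-led members had estimates close to those of the rest. Of them 3 were called higher and 1 lower (background 5.43% and 5.42%), with a median log2 fold change of 0.123. The 35 tested members with another annotated start had 4 called higher and 0 lower by edgeR, with a median of 0.103. The 14 without a start in use, which include those on chromosome 8, had 1 called higher and a median of 0.133. EEF1A1 and EIF4A2 carry a run each and changed in opposite directions. A list of 12 members known for TOP transcripts (EEF1A1, EEF1A2, EEF1B2, EEF1D, EEF1G, EEF2, EIF2S3, EIF3A, EIF3E, EIF3F, EIF3H and EIF4B) had 11 tested genes, of which EEF1A1 and EEF1B2 were called higher (18.2%, background 5.43%), with a median of 0.125. All 11 estimates were above 0 with TMM scaling, and 10 with library size alone. All 11 genes had a mean of at least 100 CPM, a level at which 17.6% of all genes tested were called higher. The GGACT sequence was counted in each member's longest transcript, on the transcript's own strand. Its median density was 0.908 per kb in the tested members and 0.909 per kb over 16627 tested genes, and its Spearman's rho with the log2 fold change was 0.022 over the 62 members, or -0.143 with the length and GC trend removed. EIF3B, with 13 matches, and EIF3K, with 0, were both called higher.

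The elongation group had estimates above 0 throughout. It held 6 tested genes listed as elongation factor subunits, EEF1E1 among them, and 7 tested enzymes that act on elongation factors. All 13 tested members had both sh812 libraries above both shNC libraries and an estimate above 0 with TMM scaling (background for non-overlapping groups in this direction 26.2%); with library size alone EEF1AKMT3 was at -0.0012. Of these, 3 were called higher and 0 lower by edgeR (23.1% higher, background 5.43%), and 7 had an unadjusted p under 0.05 (53.8%, background 24.8%). The median log2 fold change was 0.184. For the 6 subunits it was 0.182, or 0.114 with the length and GC trend removed. For the 7 enzymes it was 0.184, or 0.19 with that trend removed. Called higher were 2 of the 6 subunits (33.3%) and 1 of the 7 enzymes (14.3%), or 1 and 2 with the trend removed. Among all genes with a mean of at least 100 CPM, 17.6% were called higher and 44.5% had an unadjusted p under 0.05. Both sh812 libraries were above both shNC libraries in 1050 of these 2332 genes. EEF1E1, EEF2K, EEF2KMT and EEF1AKMT1 to EEF1AKMT4 lay below that level, so the comparison is only partly like for like.

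EEF1A1, the factor that carries aminoacylated transfer RNA to the ribosome (chromosome 6, 73515750 to 73523797, minus strand), had the highest count of any gene in every library. Its level was 6760 and 7585 CPM in shNC and 8452 and 8496 CPM in sh812. Both sh812 libraries were above both shNC libraries, and the gap between the shNC libraries was nearly as wide as that between shNC replicate 2 and the sh812 pair. The log2 fold change was 0.24 (SE 0.06, edgeR adjusted p = 0.00646) and 0.27 with the length and GC trend removed (adjusted p = 0.000803). It was not called without sh812 replicate 1 (adjusted p = 0.11) or replicate 2 (adjusted p = 0.115). Of all members EEF1A1 had the highest level per length, 1206 CPM per kb of exon in shNC, followed by EEF2 at 426 and EIF3I at 245. The table lists 39 EEF1A1 pseudogenes whose counts came to 1.61% of the parent's. The most counted of them, EEF1A1P5, had 68.2 and 75.8 CPM in shNC against 87.0 and 84.9 CPM in sh812 (log2 fold change 0.26, SE 0.07, adjusted p = 0.0199). Its call was lost with the trend removed (0.15, adjusted p = 0.12) and with library size alone (0.21, adjusted p = 0.052). Reads of EEF1A1P5 that match the parent cannot be told apart from the parent's own.

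EEF1A2, the second eEF1A protein, best known from muscle and neurons, was at 478 and 521 CPM in shNC and at 527 and 543 CPM in sh812 (log2 fold change 0.10, SE 0.06, adjusted p = 0.313), and was called only without shNC replicate 2 (0.17, adjusted p = 0.00274). EEF1B2, a guanine nucleotide exchange subunit that recharges eEF1A (chromosome 2, 206159585 to 206162928, plus strand), was at 269 and 308 CPM in shNC and at 342 and 346 CPM in sh812. Its groups did not overlap, although the shNC libraries differed from each other by more than shNC replicate 2 differed from the sh812 libraries. The log2 fold change was 0.25 (SE 0.06, adjusted p = 0.0106). Removing the length and GC trend left 0.13 (adjusted p = 0.123), the estimate was 0.16 without shNC replicate 1 (adjusted p = 0.0207), and the call was lost without either sh812 library (adjusted p = 0.0995 and 0.133). EEF1D, another exchange subunit, had an estimate of 0.10 and was not called. EEF1E1, a scaffold protein of the aminoacyl-tRNA synthetase complex, was low, with 457 and 350 counts against 537 and 491, and its groups did not overlap (log2 fold change 0.33, SE 0.12, adjusted p = 0.0931).

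EEF1G, the remaining eEF1 subunit, had 0 counts in all 4 libraries, and a count of 0 allows up to 3 counts by counting error alone. In GENCODE 29, 99.9% of its exon bases are shared on the same strand with the read-through gene AP002990.1, which had 458 counts in all. Reads that fall in 2 genes are commonly not assigned, and how the authors' counting treated them is not given in the sources used here. The level of EEF1G cannot be read from this table.

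EEF2, the translocase that moves the ribosome by a codon, was at 1637 and 1793 CPM in shNC and 1886 and 1849 CPM in sh812. All sh812 values were above shNC, but the gap between the shNC libraries was wider than that between shNC replicate 2 and either sh812 library. The log2 fold change was 0.12 (SE 0.06, adjusted p = 0.171), and EEF2 was called only without shNC replicate 2 (0.20, adjusted p = 2.76e-06). EEF2K, the kinase that inactivates eEF2, had 28.2 and 27.9 CPM against 32.4 and 30.9 CPM (0.18, SE 0.09, adjusted p = 0.233; with the trend removed 0.26, adjusted p = 0.0482).

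Among the enzymes that methylate elongation factors, EEF1AKNMT rose. This gene, also known as METTL13, encodes the methyltransferase of the eEF1A N-terminus and of a lysine (chromosome 1, 171781664 to 171814023, plus strand). Its level was 221 and 237 CPM in shNC and 266 and 256 CPM in sh812, with no overlap between groups (log2 fold change 0.18, SE 0.06, adjusted p = 0.0477). The call was close to the threshold: it was lost with library size alone (0.14, adjusted p = 0.115), without shNC replicate 1 (adjusted p = 0.0811) and without sh812 replicate 1 or 2 (adjusted p = 0.459 and 0.219). The lysine methyltransferase genes EEF1AKMT1, EEF1AKMT2, EEF1AKMT3 and EEF1AKMT4 were low, at 4.69 to 13.0 CPM over all libraries, and none was called. EEF1AKMT4 (0.30, SE 0.14, adjusted p = 0.169) and the eEF2 methyltransferase EEF2KMT (0.31, SE 0.13, adjusted p = 0.119) had an unadjusted p under 0.05. Without shNC replicate 2 both were called (adjusted p = 0.0207 and 0.00748). EEF2KMT shares 29.3% of its exon bases with ALG1 on the opposite strand, and EEF1AKMT4 shares 20.5% with CAMK2N2; whether counting used strand is not given in the sources used here.

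The eIF3 complex, the large scaffold that holds the small ribosomal subunit ready for the messenger RNA, contributed 14 tested genes. All 14 estimates were above 0 with TMM scaling, between 0.04 and 0.36 with a median of 0.122, whereas EIF3A was below 0 with library size alone and EIF3G with the trend removed. EIF3K, EIF3I and EIF3B were called higher (21.4%, background 5.43%) and no eIF3 gene lower by edgeR, and 5 of the 14 had an unadjusted p under 0.05 (35.7%, background 24.8%). In 9 of the 14 sh812 was above shNC in all libraries, beside a background of 26.2%. Of the 2332 genes with a mean of at least 100 CPM, 1050 had sh812 above shNC in this way. EIF3C and EIF3CL lay below that level. Shares over all genes with a mean of at least 100 CPM were 17.6% called higher and 44.5% with an unadjusted p under 0.05.

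EIF3K, a small peripheral subunit (chromosome 19, 38619082 to 38636955, plus strand), changed most among the called members. It had 141 and 146 CPM in shNC and 185 and 184 CPM in sh812. The gap between groups was several times the gap within either. The difference was 1.29-fold (log2 fold change 0.36, SE 0.06, adjusted p = 0.000245), and 0.26 on the log2 scale with the length and GC trend removed (adjusted p = 0.00262). EIF3K was the only member called under every alternative run, with log2 fold changes from 0.256 to 0.398.

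EIF3I (chromosome 1, 32221928 to 32231604, plus strand), a propeller-shaped subunit that binds EIF3B, was at 403 and 442 CPM in shNC and at 523 and 516 CPM in sh812. The groups were well apart (log2 fold change 0.30, SE 0.06, adjusted p = 0.00172). With the trend removed it was 0.20 (adjusted p = 0.00783), and the call was lost only without sh812 replicate 1 (0.29, adjusted p = 0.0547). EIF3B itself, a core subunit with an RNA recognition motif (chromosome 7, 2354086 to 2380745, plus strand), was at 469 and 497 CPM against 574 and 556 CPM. Here too the groups did not overlap (log2 fold change 0.23, SE 0.06, adjusted p = 0.0116; 0.24 with the trend removed, adjusted p = 0.00276), and the call was lost without sh812 replicate 1 (adjusted p = 0.259) or 2 (adjusted p = 0.117). The third partner of this module, EIF3G, overlapped between groups, with 237 and 266 CPM in shNC and 280 and 253 CPM in sh812.

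The other eIF3 genes moved less. EIF3A, the largest scaffold subunit, was at 330 and 300 CPM in shNC and 333 and 313 CPM in sh812, with overlapping groups (log2 fold change 0.04, SE 0.06, adjusted p = 0.782; -0.03 without shNC replicate 2 and -0.0075 without sh812 replicate 1). EIF3E was at 649 and 690 CPM against 750 and 733 CPM (0.15, SE 0.06, adjusted p = 0.0952), and EIF3H was at 426 and 461 CPM against 492 and 488 CPM (0.14, SE 0.06, adjusted p = 0.116). Both had non-overlapping groups without a call, and both were called without shNC replicate 2 (adjusted p = 0.000117 and 0.000158). EIF3C and EIF3CL are near-identical copies, so their low values (38.4 and 2.85 CPM on average in shNC) may reflect how reads that match both were handled, and they are uncertain.

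**Figure D4:**
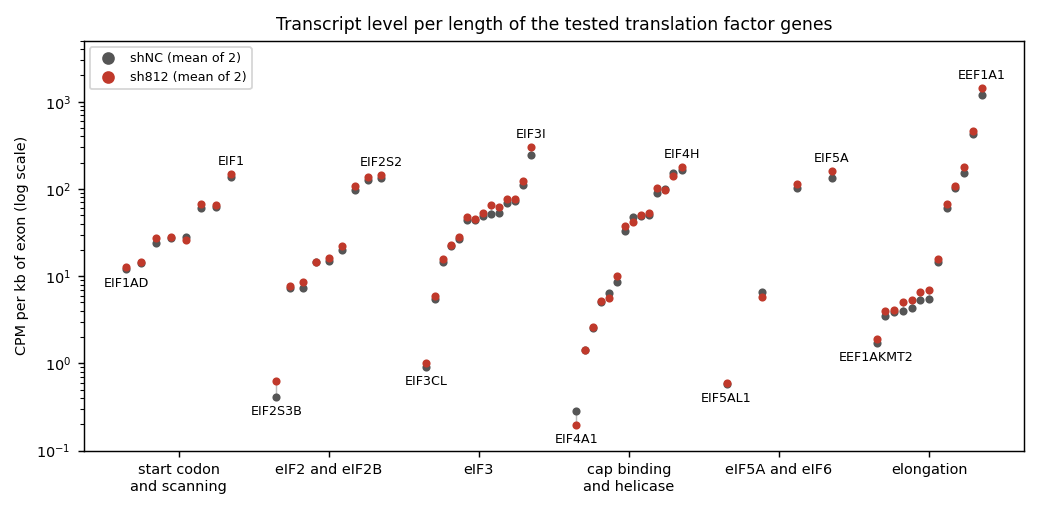
Mean CPM per kb of exon (y axis, log scale) of the 62 tested genes in shNC and sh812 (points joined by a line, 2 libraries each), ordered within each role. Levels in shNC run from 0.282 for EIF4A1 to 1206 for EEF1A1, and the shift between groups is small beside this range.

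The eIF2 and eIF2B genes had estimates above 0 in all 9 tested cases, with EIF2B5 below 0 when library size alone was used. None was called by edgeR, and 4 had an unadjusted p under 0.05 (44.4%, background 24.8%, and 44.5% of genes with a mean of at least 100 CPM). EIF2B1 to EIF2B4 and EIF2S3B lay below that level, so the last comparison is only partly like for like. The median of the 9 was 0.125, and 8 of the 9 had both sh812 libraries above both shNC libraries (background 26.2%). Of the 2332 genes with a mean of at least 100 CPM, 1050 were placed in this way. eIF2, made of the products of EIF2S1, EIF2S2 and EIF2S3, delivers the initiator transfer RNA, and eIF2B, made of 5 subunits, exchanges its nucleotide. EIF2S1, whose phosphorylation slows initiation under stress, was at 717 and 719 CPM in shNC and 795 and 747 CPM in sh812 (0.10, SE 0.06, adjusted p = 0.263). EIF2S3 was at 326 and 345 CPM against 375 and 370 CPM (0.15, SE 0.06, adjusted p = 0.0922), and was called without shNC replicate 2 (adjusted p = 0.000821). EIF2S2 had an estimate of 0.12 (adjusted p = 0.168) and was called without shNC replicate 1 (adjusted p = 0.0245). The 3 subunits thus had estimates of similar size, none past the threshold with all libraries.

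Within eIF2B, EIF2B4 was at 36.9 and 41.6 CPM in shNC and 47.1 and 45.2 CPM in sh812 (log2 fold change 0.23, SE 0.08, adjusted p = 0.075), and was called with the trend removed (0.27, adjusted p = 0.0279) or without shNC replicate 2 (0.33, adjusted p = 0.00392). EIF2B1 had an estimate of 0.17 (adjusted p = 0.119). EIF2B5, the catalytic subunit, was at 105 and 104 CPM against 109 and 101 CPM, with overlapping groups and an estimate of 0.0038 (SE 0.07, adjusted p = 0.983; -0.05 without sh812 replicate 1). The retrocopy EIF2S3B had 26 to 62 counts per library and nearly the sequence of EIF2S3, so its estimate of 0.61 (SE 0.39, adjusted p = 0.352) is uncertain.

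Of the 8 tested genes of start codon selection and scanning, none was called by edgeR with TMM scaling, and 2 had an unadjusted p under 0.05 (25%, background 24.8%). With that scaling 7 estimates were above 0; with library size alone 6 were, with EIF2D falling below 0, and with the trend removed 6, with EIF1B below 0. EIF1, which guards the choice of start codon, was at 470 and 530 CPM in shNC and 546 and 528 CPM in sh812, with overlapping groups (0.10, SE 0.06, adjusted p = 0.31; 0.20 without shNC replicate 2, adjusted p = 0.000316). EIF1AX was at 267 and 272 CPM against 303 and 285 CPM (0.13, SE 0.06, adjusted p = 0.179), and EIF5, the activator of the eIF2 GTPase, was at 529 and 520 CPM against 553 and 556 CPM (0.08, SE 0.06, adjusted p = 0.398). Both were called with the trend removed (adjusted p = 0.0384 and 0.0466), and EIF1AX also without shNC replicate 2 (adjusted p = 0.0319).

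EIF5B, the GTPase that joins the ribosomal subunits, turned on a single control library. It was at 214 and 166 CPM in shNC and at 217 and 212 CPM in sh812. Only shNC replicate 2 was low, and the groups overlapped. The log2 fold change was 0.18 (SE 0.08, adjusted p = 0.158). It was 0.37 without shNC replicate 1 (adjusted p = 7.19e-09) and 0.01 without shNC replicate 2 (adjusted p = 0.921).

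The cap-binding and helicase genes had a call in each direction. Of 14 tested, 1 was called higher and 1 lower (7.14% each, background 5.43% and 5.42%), with 8 estimates above 0 and 6 below and a median of 0.0347, or 6 above and 8 below with library size alone. The 14 take in the EIF4E binding proteins EIF4EBP1 and EIF4EBP2, and also EIF4ENIF1. Without these, 11 tested genes had 5 estimates above 0 and 6 below. Their median was -0.0189, or 0.073 with the length and GC trend removed. EIF4E, the cap-binding protein, was at 71.7 and 69.4 CPM in shNC and at 71.1 and 74.3 CPM in sh812, with overlapping groups (0.04, SE 0.07, adjusted p = 0.769). EIF4E2, a cap-binding homologue that mostly represses translation (chromosome 2, 232550052 to 232583644, plus strand), was at 58.5 and 64.5 CPM in shNC and at 73.3 and 71.8 CPM in sh812. Its groups did not overlap (0.24, SE 0.07, adjusted p = 0.0351; 0.24 with the trend removed, adjusted p = 0.0229). The call was lost with library size alone (0.19, adjusted p = 0.0863), with DESeq2 (0.24, adjusted p = 0.0602), and without shNC replicate 1 (adjusted p = 0.15), sh812 replicate 1 (adjusted p = 0.291) or sh812 replicate 2 (adjusted p = 0.191).

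EIF4A2, one of the RNA helicases of the cap complex (chromosome 3, 186783205 to 186789900, plus strand), fell. It was at 299 and 286 CPM in shNC and at 249 and 259 CPM in sh812, with both sh812 libraries below both shNC libraries (log2 fold change -0.20, SE 0.06, adjusted p = 0.0255). After removal of the length and GC trend the estimate was -0.13 (adjusted p = 0.0903), and the call was lost without sh812 replicate 1 (-0.17, adjusted p = 0.39) or replicate 2 (-0.23, adjusted p = 0.169). The paralogous helicase EIF4A1 had only 56 and 48 counts in shNC and 37 and 37 in sh812. In GENCODE 29 it shares 41.1% of its exon bases with AC016876.2 and 29.8% with SENP3-EIF4A1 on the same strand, and its 13 pseudogenes held 839 counts, more than its own 178. Its estimate of -0.52 (SE 0.38, adjusted p = 0.429) therefore says little about EIF4A1.

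The scaffold genes EIF4G1, EIF4G2 and EIF4G3 were each lower in both sh812 libraries than in both shNC libraries, and none was called. EIF4G1 was at 823 and 832 CPM in shNC and 808 and 784 CPM in sh812 (-0.06, SE 0.05, adjusted p = 0.588), and EIF4G2 was at 1306 and 1317 CPM against 1257 and 1204 CPM (-0.09, SE 0.05, adjusted p = 0.308). EIF4G3 was at 66.1 and 57.2 CPM against 52.4 and 54.8 CPM (-0.20, SE 0.08, adjusted p = 0.102), and was -0.30 without shNC replicate 2 (called, adjusted p = 0.00208) and -0.09 without shNC replicate 1 (adjusted p = 0.568). Their longest transcripts are between 5667 and 6769 bases, and with the trend removed EIF4G1 was at 0.0060, EIF4G2 at -0.01 and EIF4G3 at -0.13. The inhibitors that hold eIF4E away from eIF4G, EIF4EBP1 and EIF4EBP2, had estimates on the other side. EIF4EBP2 was at 244 and 240 CPM in shNC and 265 and 277 CPM in sh812 (0.16, SE 0.06, adjusted p = 0.0691), and was called by DESeq2 (adjusted p = 0.0386), with the trend removed (0.24, adjusted p = 0.00352) and without shNC replicate 1 or 2 (adjusted p = 0.0133 and 0.0149). EIF4EBP1 was at 91.0 and 103 CPM against 115 and 106 CPM (0.18, SE 0.07, adjusted p = 0.0967), with an estimate of 0.02 once the trend was removed; without shNC replicate 2 it was called (0.28, adjusted p = 0.000299).

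EIF5A, the hypusine-bearing factor that helps the ribosome past difficult peptide bonds (chromosome 17, 7306999 to 7312463, plus strand), was at 354 and 408 CPM in shNC and at 452 and 444 CPM in sh812. The groups did not overlap, and shNC replicate 2 was closer to the sh812 libraries than to its own partner. The log2 fold change was 0.23 (SE 0.06, adjusted p = 0.0175), 0.13 with the trend removed (adjusted p = 0.0886) and 0.14 without shNC replicate 1 (adjusted p = 0.0438), and the call was lost without sh812 replicate 1 or 2 (adjusted p = 0.201 and 0.124). Its paralog EIF5A2 lay on the other side, at 38.5 and 35.7 CPM in shNC and 34.6 and 30.7 CPM in sh812 (-0.19, SE 0.09, adjusted p = 0.2). EIF6, which keeps the ribosomal subunits apart, was at 163 and 176 CPM against 192 and 181 CPM (0.14, SE 0.06, adjusted p = 0.169), with an estimate of 0.02 once the trend was removed; without shNC replicate 2 it was called (adjusted p = 0.00546). The members left out by the low-count filter were EEF1G, the read-through genes EEF1AKMT4-ECE2 and EEF1E1-BLOC1S5, and EIF1AY, EIF4E1B and EIF4EBP3.

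A further list of translational control genes outside the name rule held 62 genes found in the table, of which 61 were tested. Of these, 8 were called by edgeR, 4 higher and 4 lower (13.1%, background 10.8%, and 13% of protein-coding genes tested). The median log2 fold change of the 61 was 0.0216. Called higher were PABPC4, a cytoplasmic poly(A)-binding protein (177 and 186 CPM in shNC, 207 and 219 CPM in sh812, log2 fold change 0.23, adjusted p = 0.0155), the phosphatase subunit PPP1CC (0.21, adjusted p = 0.0199), the eIF4E kinase MKNK2 (0.24, adjusted p = 0.0155) and the mitochondrial elongation factor TUFM (0.21, adjusted p = 0.0319). Called lower was PPP1R15A, which targets the phosphatase to eIF2 (111 and 97.6 CPM in shNC, 87.4 and 81.1 CPM in sh812, log2 fold change -0.31, adjusted p = 0.00666). PDCD4, an inhibitor of the eIF4A helicase, was at 50.5 and 47.9 CPM against 38.7 and 41.6 CPM (-0.29, adjusted p = 0.0198). GIGYF1, a partner of EIF4E2 (-0.31, adjusted p = 0.0348), and GTPBP2, a ribosome rescue GTPase (-0.26, adjusted p = 0.0366), completed the set. The call of GIGYF1 was lost with the trend removed (adjusted p = 0.0775), with DESeq2 (adjusted p = 0.0956) and without shNC replicate 1 (-0.17, adjusted p = 0.345). That of TUFM was lost with the trend removed (0.14, adjusted p = 0.084), with library size alone (adjusted p = 0.077) and without shNC replicate 1 (0.13, adjusted p = 0.113), and that of GTPBP2 with DESeq2 (adjusted p = 0.0858) and without shNC replicate 1 (adjusted p = 0.0905). Without sh812 replicate 1 only PPP1R15A of the 8 was called, and without sh812 replicate 2 none.

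By role, 3 of the 15 cap, poly(A) and helicase partners were called (20%, background 10.8%), 1 higher and 2 lower. Of the 7 further elongation genes 2 were called (28.6%), 1 in each direction. The 9 genes of eIF2 phosphorylation and its reversal had 1 called higher and 1 lower (22.2%), with none of the 4 EIF2AK kinases called. The 13 genes of mTORC1 and related kinases had 1 called higher and 0 lower by edgeR (7.69% called, background 10.8%). Of their estimates 9 were below 0, beside 8570 of all 16802 genes tested. Their median was -0.0622, or -0.0272 with the length and GC trend removed and -0.107 with library size alone. Neither DENR, MCTS1, ABCE1, ETF1, GSPT1, GSPT2, PELO nor HBS1L, which end, recycle or restart translation, was called. Without shNC replicate 2, 17 of the list were called, against 1 without sh812 replicate 1 and 0 without sh812 replicate 2.

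**Figure D5:**
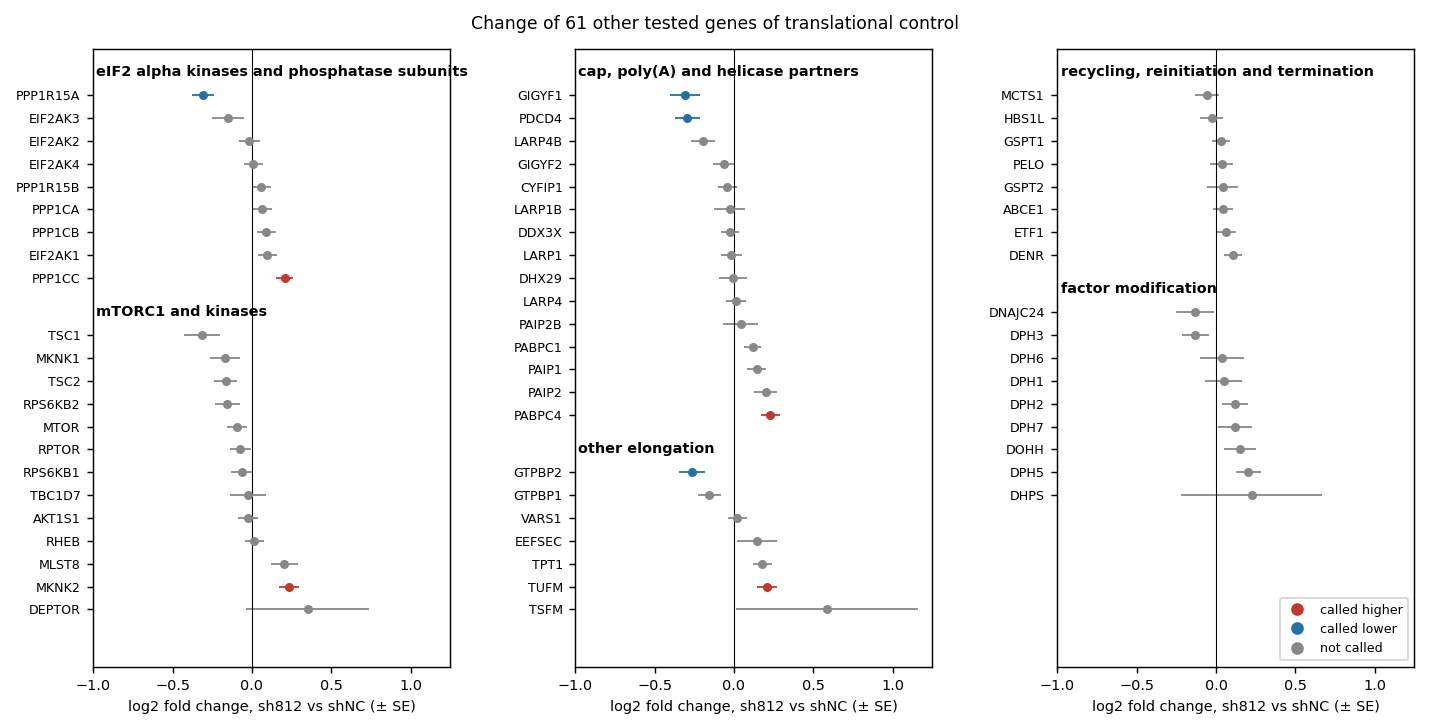
Log2 fold change of sh812 over shNC (x axis) for 61 tested translational control genes outside the name rule, by role, with bars of 1 SE from edgeR (n = 2 libraries per group). Estimates lie on both sides of 0, 34 above and 27 below, and 4 genes were called in each direction.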

How the data were processed

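Poly(A) RNA of 4 PC3 libraries was sequenced as paired reads with a strand-keeping dUTP protocol, per the labels' protocols. For 60544 genes, the authors deposited counts per gene in whole numbers, with no normalization. The submitters' processing notes name fastp, STAR 2.7.1a, featureCounts, DESeq2 and build hg38, without their order or settings. The annotation release, the strand setting and the handling of multi-gene reads are not given in the sources used here.

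The test was edgeR 4.0.16 run in R 4.3.3 (TMM, filterByExpr by group, glmQLFit and glmQLFTest, two-sided, Benjamini-Hochberg adjustment over 16802 genes, threshold 0.05, fitted prior count 0.125). SE was derived from the F statistic. CPM and CPM per kb of exon were computed here from the deposited counts, with gene models of GENCODE 29 (GRCh38) matched by Ensembl identifier; all 68 members matched. Start windows came from RefSeq (GRCh38.p14), with member entries on chromosome 8 left out. Alternatives were RLE, upper quartile and library-size scaling, a filter at a mean CPM of 1 or none, DESeq2 1.42.0, limma-voom (limma 3.58.1), the replicate number as a block, removal of each library's length and GC trend (lowess, span 0.3), both together, and each library left out. The methods were tested on simulated counts. There, edgeR called 31.3% of changes of 0.25 on the log2 scale in the right direction, and 86.8% of changes of 0.5. A gene that was not called may therefore still differ by a small amount.

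Replicates were compared before averaging: the chi-square per gene was 8.43 between the shNC replicates and 4.51 between those of sh812, so each library counted as a separate replicate. Deviations of libraries with the same number correlated at 0.0238, so the numbers were not taken as pairs.

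Named genes are METTL3, members called or with an unadjusted p under 0.05, the 3 members with the highest level per length, the defining members of each complex, members left out by the filter and the called genes of the further list. EEF1A1P5, EIF3G, EIF3C, EIF3CL, EIF2S3B, EEF1D, EEF1AKMT1 to EEF1AKMT3 and the uncalled genes of the further list that are named were added after their values were seen. The members and lists were chosen with earlier results of these data known. Of the 67 symbols of the further list, 62 were found; the unmatched 5 are older symbols. Genes overlapping on opposite strands, and near-identical copies, can share reads.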

Additional observations from a re-analysis of the deposited data

How the results depend on the processing

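The count of 9 called translation factor genes was within 1.5 times of itself with RLE, upper quartile or library-size scaling, without the low-count filter, with a mean CPM of at least 1, with DESeq2 and with limma-voom (7 to 10). With the replicate number as a block it was 9, the same 9 genes, and the block changed no call of a named gene. With the length and GC trend removed it was 14, and with the block and that removal together 14. Leaving out 1 library gave 1 to 29 members, 587 to 3252 of all genes against 1822, and 0 to 17 of the further translation genes against 8; the members' median log2 fold change then ran from 0.0856 to 0.163. Leaving out a library also changes the number of samples in the fit; the cause of the other shift, to 14, was not tested. METTL3 was called under every alternative. No called gene changed sign in any setting run; the uncalled EIF2B5, EIF3A, EIF4E and EIF4G1 had the opposite sign in 3, 3, 1 and 2 settings. DESeq2 called 1303 of all genes. With library size alone the calls over all genes split into 561 higher and 1328 lower, against 912 and 910. With 2 libraries per group the smallest called change among the members was 0.18 on the log2 scale, and EEF1G and EIF4A1 cannot be read from these counts.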
